A study of Mus musculus with 4 samples.

Results

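The collagen gene family was taken as every probe whose gene symbol on the platform is Col, a type number, the letter a and a chain number. It comprised 59 probes for 37 genes, out of 23978 named probes for 16593 genes. The mouse gene table holds 44 collagen genes of that form, and Col6a3, Col6a4, Col6a5, Col8a1, Col12a1, Col20a1 and Col22a1 had no named probe. Of the 37 genes, 17 had a detection p-value under 0.01 on at least 1 array, 11 of them on all 4 arrays and 6 on some arrays only, and 20 were not detected. The detection p-value is the array's own measure of a probe's brightness against background, and it is low for a probe well above background.

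Collagens are the main structural proteins of the extracellular matrix, each built from 3 chains wound into a triple helix. The fibrillar types form the rope-like fibrils that fibroblasts lay down in connective tissue, type IV forms the sheet-like network of basement membranes under epithelium, endothelium and around fat and muscle cells, and the remaining types decorate fibrils, link them to cells or form finer networks. In the thyroid, fibrillar collagens form the capsule and septa, and type IV underlies follicles and vessels.

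The 4 RNA samples, labelled thyroid and Balb/c, belong to a study of radioiodine. Their absorbed doses were 0, 0.85, 8.5 and 17 Gy, and each label also gives 24 h. The labels give no genotype, age or agent for the 0 Gy sample, and the number of mice behind a sample is not given in the sources used here. Each dose had 1 array, so no value below has a replicate error, no difference was tested, and each comparison is of 2 arrays rather than of 2 doses. The comparisons ask which collagen transcripts differ after irradiation, dose by dose.

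The labelled tissue was checked against its defining markers. Of 10 thyrocyte genes with a probe, 8 were not detected on any array, Tg, Slc5a5, Pax8, Nkx2-1 and Foxe1 among them, while all 10 fat genes were detected on at least 1 array and 8 on all 4. On the 8.5 Gy array all 11 skeletal muscle markers were detected and at least 2-fold above the 0 Gy array, with a summed intensity of 132155 against 932 to 1294 on the other arrays, and on the 17 Gy array 6 of them were detected, with Acta1 at least 2.94-fold and Atp2a1 at least 2.91-fold above the 0 Gy array and the other bounds below 2-fold. On the 17 Gy array 7 of 8 salivary gland markers were at least 2-fold above the 0 Gy array, with a summed intensity of 14155 against 724 to 804 elsewhere. Over all genes compared, 2.63% were at least 2-fold higher at 8.5 Gy and 0.88% at 17 Gy. The part of these marker differences in the collagen values was not tested. In whole tissue, fewer cells of a type and less RNA per cell cannot be told apart.

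Values are given first as deposited bead intensities in the order 0, 0.85, 8.5 and 17 Gy. Median intensity over all probes was 92, 108, 105 and 95 in that order, so intensities of different arrays compare only after normalization, and the log2 values below are background-corrected and normalized. Each log2 difference is the dosed array minus the 0 Gy array. Probes differ in brightness for reasons other than transcript number, so no gene's level is set against another's.

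Among fibrillar collagens, 6 of 11 genes were detected: Col1a1, Col1a2, Col3a1, Col5a1, Col5a3 and Col27a1. Col3a1, Col5a1 and Col1a1 were detected on every array, and each was brightest on the 0 Gy array after normalization and next brightest on the 17 Gy array. Col2a1, Col11a1 and Col11a2, the fibrillar chains of cartilage, were not detected, nor were Col5a2 and Col24a1. None of 9 cartilage marker genes was detected either, Acan and Sox9 included.

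Col3a1, the chain of type III collagen in distensible tissues, had intensities of 545, 218, 265 and 373. Its normalized log2 values were 9.06, 6.91, 7.50 and 8.31. It was thus lowest on the 0.85 Gy array and lower on each dosed array than on the 0 Gy array. The difference was -2.15 at 0.85 Gy, a 4.44-fold lower value, -1.56 at 8.5 Gy (2.95-fold lower) and -0.75 at 17 Gy (1.68-fold lower). The gene's second probe was detected on the 0 Gy array only, with intensities of 109, 103, 96 and 93 and differences of -0.95, -1.05 and -0.88.

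Col5a1, a chain of type V collagen that sits inside type I fibrils and sets their width, had intensities of 676, 378, 386 and 527. Its log2 values were 9.41, 8.01, 8.24 and 8.93. The order of the arrays was the same as for Col3a1, with differences of -1.41 (2.65-fold lower), -1.17 (2.25-fold lower) and -0.48 (1.4-fold lower). Col1a1, the main chain of type I collagen, had intensities of 173, 152, 140 and 170 and log2 values of 6.83, 5.95, 5.83 and 6.66. Its differences were -0.88 for the lowest dose, -1.0 at 8.5 Gy, which is at the 2-fold line, and -0.16 at 17 Gy.

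The 3 other fibrillar genes lay close to background. Col27a1 had intensities of 121, 118, 124 and 117 and did not clear background on the 0.85 Gy array, where it was at least 1.58-fold lower, and its differences at 8.5 and 17 Gy were -0.44 and -0.29. Col1a2, the partner chain of Col1a1, had intensities of 97, 103, 110 and 105 and was detected on the 17 Gy array only. Col5a3 had 92, 123, 110 and 100 and was detected on the 0.85 Gy array only, at least 1.03-fold above the 0 Gy array. No gene of this trio was 2-fold apart from the 0 Gy array in any comparison.

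**Figure D1:**
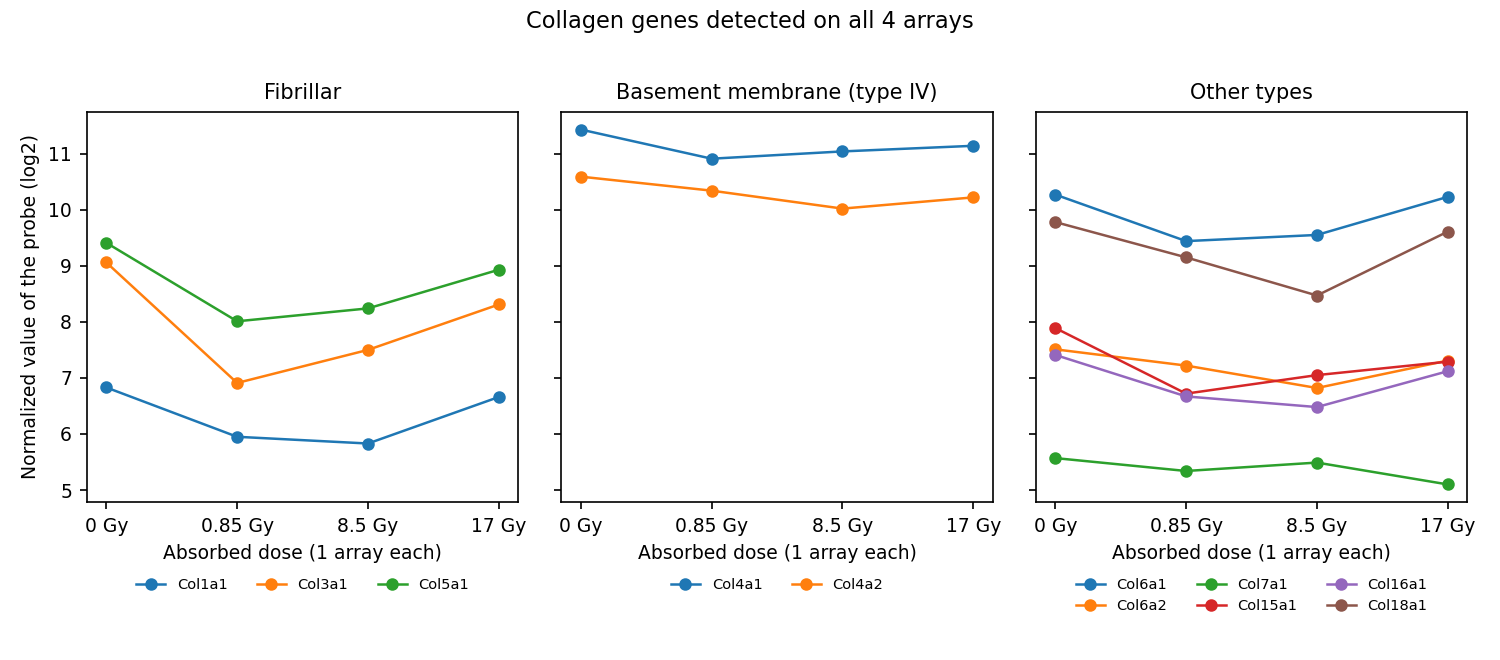
Normalized log2 value of each collagen gene detected on all 4 arrays, by absorbed dose with 1 array at each dose, drawn at equal spacing. Panels show fibrillar, basement membrane and other types, lines join the values of 1 probe, and heights of different probes are not comparable. Col3a1 and Col5a1 are lowest at 0.85 Gy, Col18a1 is lowest at 8.5 Gy, and Col4a1 and Col4a2 vary by 0.57 or less from the 0 Gy array.

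For the genes lower on the dosed arrays, the promoter was set beside the values. The RefSeq promoter table (GRCm38.p6) holds windows of 300 bases, 250 before and 50 after the annotated start, for 15 of the 17 detected genes in 17 windows. The windows of Col3a1 and Col5a1 are shown because these are the only collagen genes at least 2-fold lower on both the 0.85 and 8.5 Gy arrays. Capitals mark the TATA box letters TATAAA and the GC box letters GGGCGG on either strand, and the strand shown is that of the gene. Col3a1 lies at chr1:45311288-45311587 (+) and Col5a1 at chr2:27886175-27886474 (+).
Col3a1: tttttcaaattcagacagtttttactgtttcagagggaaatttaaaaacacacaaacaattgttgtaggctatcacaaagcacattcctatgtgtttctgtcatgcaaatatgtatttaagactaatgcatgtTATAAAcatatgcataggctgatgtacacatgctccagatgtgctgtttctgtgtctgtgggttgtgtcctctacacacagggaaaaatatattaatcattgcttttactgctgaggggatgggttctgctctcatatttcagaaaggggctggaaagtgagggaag
Col5a1: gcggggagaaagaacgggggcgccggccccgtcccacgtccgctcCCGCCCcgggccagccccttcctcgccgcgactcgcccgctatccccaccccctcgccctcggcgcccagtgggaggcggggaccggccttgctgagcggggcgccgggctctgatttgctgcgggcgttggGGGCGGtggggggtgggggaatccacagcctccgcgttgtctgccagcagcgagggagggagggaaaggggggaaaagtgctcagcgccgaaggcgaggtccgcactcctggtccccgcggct
GC content was 37.7% in the Col3a1 window, the lowest of the detected collagens, and 75% in the Col5a1 window, the highest, against a median of 52.7% over 32851 windows of the table.

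The Col3a1 window held 1 TATAAA and was the only 1 of the 17 windows that did, and TATAAA on either strand was in 13.6% of all windows. The Col5a1 window held 2 GC boxes, which were in 13 of the 17 windows and in 35.7% of all windows. The CCAAT box, searched as CCAAT on either strand, was in neither, in 7 of the 17 windows and in 37.4% of all windows. The window of Col15a1, the third gene at least 2-fold lower at 0.85 Gy, had a GC content of 52.3% and held none of the 3 motifs. These matches describe letters anywhere in a window, whatever their distance from the annotated start. They show no binding and no working promoter element.

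Type IV collagen was represented by Col4a1 and Col4a2, the chains of the common basement membrane network, both detected on all 4 arrays. Col4a1 had intensities of 2419, 2299, 2308 and 2128 and log2 values of 11.43, 10.91, 11.04 and 11.14. Its differences were -0.51, -0.39 and -0.29. Col4a2 had intensities of 1396, 1567, 1174 and 1173 and log2 values of 10.59, 10.34, 10.02 and 10.22, with differences of -0.25, -0.57 and -0.37. Both were a little lower on each dosed array, Col4a1 most at 0.85 Gy and Col4a2 most at 8.5 Gy, and neither reached 2-fold.

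The pair is transcribed head to head from a common start region on mouse chromosome 8, which is shown because these partner chains stayed within 0.57 log2 of the 0 Gy array on every dosed array. In the RefSeq table (GRCm38.p6) the window of Col4a1 is chr8:11312777-11313076 on the minus strand and that of Col4a2 is chr8:11312555-11312854 on the plus strand. Capitals mark the 78 bases that the windows share, read from opposite strands.
Col4a1: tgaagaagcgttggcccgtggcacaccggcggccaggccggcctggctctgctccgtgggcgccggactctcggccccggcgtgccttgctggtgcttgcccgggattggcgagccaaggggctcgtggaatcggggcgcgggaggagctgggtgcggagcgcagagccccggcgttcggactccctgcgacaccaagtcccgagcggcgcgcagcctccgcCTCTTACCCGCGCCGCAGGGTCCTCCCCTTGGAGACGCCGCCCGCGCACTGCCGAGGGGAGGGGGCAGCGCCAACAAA
Col4a2: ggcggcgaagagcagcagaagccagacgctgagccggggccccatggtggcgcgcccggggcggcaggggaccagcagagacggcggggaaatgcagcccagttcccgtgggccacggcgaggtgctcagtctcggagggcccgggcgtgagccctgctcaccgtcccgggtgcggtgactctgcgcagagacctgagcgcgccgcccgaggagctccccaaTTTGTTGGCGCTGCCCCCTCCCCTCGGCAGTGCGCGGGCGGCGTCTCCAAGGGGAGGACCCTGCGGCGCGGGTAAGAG
The annotated starts were 21 bases apart, and both windows held the CCAAT box and the GC box. GC content was 74.0% for Col4a1 and 73.7% for Col4a2.

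Of the chains with narrower distribution, Col4a3, Col4a4 and Col4a5, which form the network of the kidney glomerulus and lung, were not detected. Col4a6 had intensities of 95, 109, 126 and 107. It was detected on the 8.5 and 17 Gy arrays only, and at 8.5 Gy was at least 1.22-fold above the 0 Gy array. Its other 2 probes were not detected.

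Other collagen types had 8 of 20 genes detected, Col6a1, Col6a2, Col7a1, Col15a1, Col16a1 and Col18a1 on all 4 arrays and Col14a1 and Col23a1 on some. Col6a1 and Col6a2 are chains of the beaded filament collagen that surrounds fat and muscle cells. Col6a1 had intensities of 1145, 887, 854 and 1187 and log2 values of 10.27, 9.44, 9.55 and 10.23. It was lower on the 0.85 and 8.5 Gy arrays, by -0.83 and -0.72, and differed by -0.04 at 17 Gy. Its second detected probe gave -0.64, -0.31 and -0.16. Col6a2 had intensities of 234, 251, 197 and 226 and differences of -0.29, -0.69 and -0.19. Col6a6 was not detected.

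Col15a1 and Col18a1 encode the multiplexins, collagens of basement membrane zones whose Col18a1 end fragment is endostatin. Col15a1 had intensities of 284, 202, 215 and 224 and log2 values of 7.89, 6.72, 7.05 and 7.29. It was lowest at 0.85 Gy, with differences of -1.17 (2.24-fold lower), -0.84 and -0.60. Col18a1 had intensities of 853, 741, 438 and 801 and log2 values of 9.78, 9.15, 8.47 and 9.61. It was lowest at 8.5 Gy, with differences of -0.63, -1.31 (2.48-fold lower) and -0.17, and its other 2 probes were not detected.

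Col16a1, a collagen associated with fibrils, had intensities of 223, 198, 173 and 207 and differences of -0.73, -0.93 and -0.29. Col7a1, the anchoring fibril collagen of stratified epithelium, had intensities of 114, 128, 128 and 106, near background, and differences of -0.23, -0.08 and -0.47. The transmembrane collagen gene Col23a1 had 110, 128, 109 and 114, was not well above background at 8.5 Gy and was at least 1.34-fold lower there. Col14a1, another fibril-associated collagen, had 96, 118, 100 and 110 and was detected at 17 Gy only, at least 1.09-fold above the 0 Gy array.

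The undetected members of this class were Col6a6, Col8a2, Col9a1, Col9a2, Col9a3, Col10a1, Col13a1, Col17a1, Col19a1, Col25a1, Col26a1 and Col28a1. They include Col10a1, the collagen of hypertrophic cartilage, and Col17a1, a hemidesmosome protein of epidermis. Over all probes of the 20 undetected collagen genes, intensities ran from 77 to 101 at 0 Gy, 88 to 117 at 0.85 Gy, 86 to 113 at 8.5 Gy and 79 to 103 at 17 Gy. Nearest outside the detection limit were Col25a1, with a detection p-value of 0.010 at 17 Gy, and Col2a1, with 0.015 at 8.5 Gy, and nearest inside were Col5a3 (0.0038 at 0.85 Gy) and Col1a2 (0.0013 at 17 Gy). These probes show that the transcripts were not well above background, not that they were absent.

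At 0.85 Gy against 0 Gy, most measured collagens had lower values, with Col3a1 and Col5a1 the furthest apart. Of 14 genes detected on at least 1 of these arrays, 3 were at least 2-fold lower (Col3a1, Col5a1 and Col15a1) and 0 higher. Over all 7682 genes compared, 3.68% were at least 2-fold lower and 1.78% higher. The median log2 difference was -0.68 for the collagens and -0.01 for all genes. By class the medians were -0.88 over 5 fibrillar genes, -0.38 over the 2 type IV genes and -0.63 over 7 other genes. The gaps between the classes depended on the processing. In the authors' normalized values the order was the same, with -0.53 for fibrillar, -0.34 for type IV and -0.5 for other genes. Without background correction the fibrillar median was -0.46, equal to that of the other types. With all probes of a gene averaged, the other types were at -0.32 and type IV at -0.38, which reversed the order of these 2 classes. With types XV and XVIII counted as basement membrane collagens, that class stood at -0.57 and the other types at -0.29.

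At 8.5 Gy against 0 Gy, 4 of 14 collagen genes were at least 2-fold lower (Col1a1, Col3a1, Col5a1 and Col18a1) and 0 higher. Over all 7862 genes compared, 3.63% were lower and 2.63% higher. The collagen median was -0.70, against -0.04 for all genes. Class medians were -1.09 over 4 fibrillar genes, -0.39 over 3 type IV genes and -0.72 over 7 other genes. With detection p-values under 0.05 the fibrillar median was -0.44 over 7 genes, beside -0.39 for type IV.

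At 17 Gy against 0 Gy, 0 of 16 collagen genes were 2-fold apart in either direction, beside 0.459% of 7839 genes lower and 0.88% higher. The collagen median was -0.24 and that of all genes 0.00. Class medians were -0.29 over 5 fibrillar, -0.29 over 3 type IV and -0.18 over 8 other genes. Col1a2, Col4a6 and Col14a1, 1 in each class, entered through the 17 Gy array alone, where they were higher. The largest differences were in Col3a1 (-0.75), Col15a1 (-0.60) and Col5a1 (-0.48).

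A gene that entered a comparison through 1 array had to differ there, so the 11 genes detected on all 4 arrays are also given. Their medians were -0.73 at 0.85 Gy, -0.84 at 8.5 Gy and -0.29 at 17 Gy, beside 0.00, -0.06 and -0.01 for the 6477 genes detected on all 4 arrays. By class, the medians of these 11 genes in the same dose order were -1.41, -1.17 and -0.48 over 3 fibrillar genes. They were -0.38, -0.48 and -0.33 over 2 type IV genes and -0.68, -0.78 and -0.24 over 6 other genes. All 11 were below the 0 Gy array at 0.85 Gy, where 49.7% of all such genes were, at 8.5 Gy (55.8%) and at 17 Gy (51.4%). In this group 3 and 4 genes were at least 2-fold lower at 0.85 and 8.5 Gy, where 3.06% and 3.18% of all such genes were, and 0 were higher, where 1.24% and 1.16% were. At 17 Gy 0 of the 11 were 2-fold apart, beside 0.201% of all such genes lower and 0.386% higher. The 3 comparisons share the 0 Gy array and are not independent of each other. The 2-fold counts depended on the processing. In the authors' normalized values, 2 of 14 measured collagens were 2-fold lower at 0.85 Gy and 2 of 14 at 8.5 Gy, beside 1.22% and 1.16% of all genes compared. Without background correction the counts were also 2 and 2, beside 1.15% and 1.08%. Scaling to the 75th percentile gave 5 at 0.85 Gy and 3 at 8.5 Gy, beside 5.73% and 3.7%. The pairs in the authors' values were Col3a1 in both, with Col5a1 at 0.85 Gy and Col18a1 at 8.5 Gy, where Col5a1 lay at -1.0, just short of 2-fold.

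Among all genes the balance of directions also moved with the processing. At 0.85 Gy 283 genes were lower and 137 higher, and with each array scaled to its 75th percentile 440 were lower and 84 higher. At 8.5 Gy 285 were lower and 207 higher, and in the authors' normalized values 91 were lower and 102 higher.

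**Figure D2:**
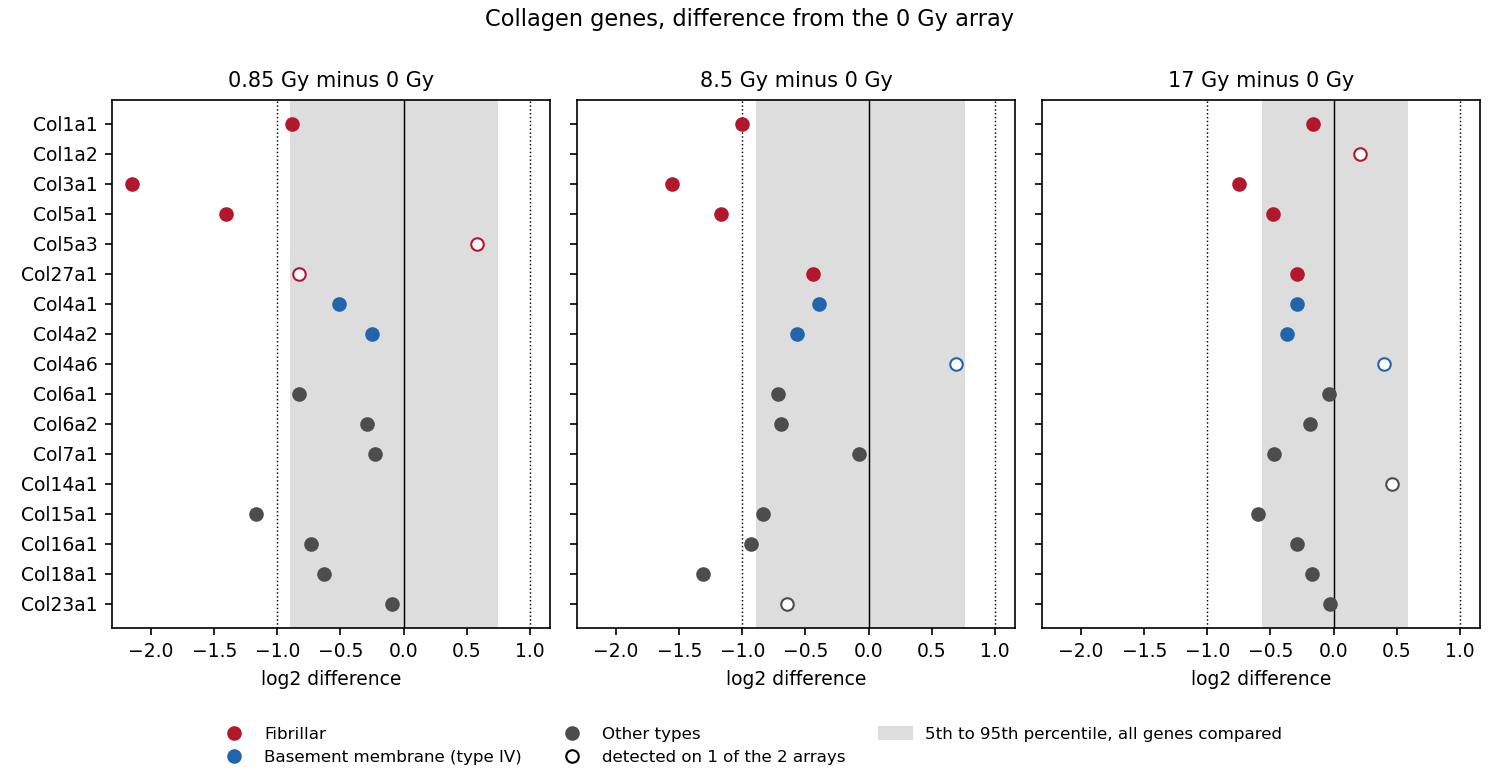
Log2 difference of each dosed array from the 0 Gy array for the 17 detected collagen genes, coloured by class, with open circles for genes detected on 1 of the 2 arrays. Dotted lines mark 2-fold and the grey band the 5th to 95th percentile of all genes compared, which is -0.90 to 0.75 at 0.85 Gy, -0.89 to 0.76 at 8.5 Gy and -0.57 to 0.59 at 17 Gy. Col3a1 lies left of the band in each panel.

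Genes whose proteins act on collagen were examined in 6 lists. Among proteins that coat or space collagen fibrils, 13 genes were measured. At 0.85 Gy 3 of them were at least 2-fold lower, beside 3.68% of all genes (list median -0.84), at 8.5 Gy 5, beside 3.63% (median -0.88), and at 17 Gy 0, beside 0.459% (median -0.18), and 0 were 2-fold higher. Not every member was lower: Bgn and Fbln1 were at 0.15 and 0.18 at 0.85 Gy, and Prelp was at 0.46 at 8.5 Gy. Lum, a small proteoglycan that spaces fibrils, had intensities of 930, 293, 297 and 675 and differences of -2.39, -2.19 and -0.59. Lum was thus lower on the 0.85 and 8.5 Gy arrays than on either of the others. The matricellular protein gene Thbs2 was at -1.17, -1.60 and -0.48, the dermatopontin gene Dpt at -1.16, -1.40 and 0.40, and the tenascin gene Tnxb at -0.94, -1.12 and -0.06, with -0.74, -0.64 and 0.14 and -0.77, -0.62 and 0.42 at its other detected probes and values within 0.10 of 0 at an undetected one.

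Of 17 measured enzymes and chaperones of collagen synthesis, 1 was 2-fold lower at 0.85 Gy, a share near the 3.68% of all genes, and the median was -0.28. At 8.5 Gy 0 of 16 genes were 2-fold apart (median -0.35) and at 17 Gy 0 of 17 (median -0.01). Loxl1, a crosslinking oxidase, had intensities of 1103, 651, 748 and 1055 and differences of -1.26, -0.85 and -0.15. The procollagen protease gene Bmp1 was at -0.93, -0.71 and -0.17, with values from -0.82 to 0.32 at its other probes, and the crosslinking oxidase gene Lox at -0.83, -0.18 and 0.41. Plod2, a lysyl hydroxylase, was at least 1.35-fold lower at 0.85 Gy and at least 1.47-fold lower at 8.5 Gy, where it was not well above background.

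In the list of collagen breakdown, members differed in direction, but Mmp11, Mmp12 and Mmp13 were detected on dosed arrays only. Among the genes detected on all 4 arrays, the inhibitor gene Timp4 was higher on each dosed array, at 0.83, 0.97 and 0.46. Most others of that group were lower at 0.85 and 8.5 Gy. At 0.85 Gy 3 of 13 genes were at least 2-fold lower (Mmp3, Timp2 and Timp3), beside 3.68% of all genes, with a median of -0.28. Mmp11 and Mmp12 had normalized differences of 1.05 and 1.7 there, where 1.78% of all genes were at least 2-fold higher. Both did not clear background at 0 Gy and are shown only to be at least 1.42-fold and 1.86-fold higher. At 8.5 Gy 5 of 11 were lower (Mmp2, Mmp3, Mmp14, Ctsk and Timp2), beside 3.63% of all genes, and 0 higher, with a median of -0.77. At 17 Gy 0 were lower and 1 of 13 higher, Mmp13, beside 0.459% and 0.88% of all genes, with a median of 0.22. Over the 9 genes of this list detected on all 4 arrays, the medians were -0.75, -1.03 and -0.09. Mmp3, stromelysin, had intensities of 284, 199, 124 and 207 and differences of -1.21, -2.53 and -0.77, with -1.08, -1.52 and -1.0 at a second probe detected on 3 arrays and -0.01, -0.68 and -0.45 at another detected on 2. The metalloproteinase inhibitor gene Timp2 had intensities of 1857, 1149, 986 and 1454 and differences of -1.15, -1.25 and -0.48. Mmp12, a macrophage elastase, was detected at 0.85 Gy only. The collagenase gene Mmp13 was at least 2.15-fold above the 0 Gy array at 17 Gy, with 0.16 and -0.46 at its other probes, which were not detected. The second probe of Timp3 gave 0.12 at 0.85 Gy, where its main probe gave -1.15.

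The laminins, nidogens and heparan sulphate proteoglycans that share the basement membrane with type IV had medians of -0.22, -0.31 and -0.17 over 12 genes, and 1, 1 and 0 of them were at least 2-fold lower, beside 3.68%, 3.63% and 0.459% of all genes. That gene was Nid1, which links laminin to type IV collagen, with intensities of 304, 202, 176 and 317 and differences of -1.29, -1.49 and -0.01. Lamb2 was at -0.70, -0.83 and -0.34, Agrn at -0.45, -0.66 and -0.16, and Nid2 at 0.03, -0.26 and -0.65. As with Col4a1 and Col4a2, most members stayed within 1 log2 of the 0 Gy array, and so did most of all genes compared.

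Collagen receptors had medians of -0.05 over 6 genes, -0.03 over 5 and -0.03 over 5, with 1, 1 and 0 genes 2-fold lower, beside the same shares of all genes (3.68%, 3.63% and 0.459%). Antxr1, a collagen-binding receptor, was at -1.26, -1.57 and -0.23, with -0.83, -0.70 and 0.00 at its other probe. The receptor tyrosine kinase genes Ddr1 and Ddr2 lay near background. Ddr1 had no settled direction, since its main probe, detected on 1 array, gave 0.53 at 0.85 Gy and its other probe, detected on 2, gave -0.92. Ddr2 was at least 1.06-fold below the 0 Gy array at 0.85 Gy, and the integrin gene Itga11 was at -0.51, 0.07 and 0.13. A second Itga11 probe, detected on 3 arrays, gave -0.47, -0.47 and 0.29, and an undetected one gave -0.05, -0.07 and 0.01. Regulators of collagen transcription, mainly TGF-beta ligands, their latency proteins and signal carriers, had medians of -0.21, -0.38 and 0.00 over 16 genes. At least 2-fold lower were 2, 2 and 0 of them, beside 3.68%, 3.63% and 0.459% of all genes. The 8.5 Gy median was not stable: over the 13 regulators detected on all 4 arrays the medians were -0.15, 0.05 and 0.06. Ltbp4, a latent TGF-beta binding protein, was at -0.73, -1.39 and -0.37, with -0.46, -1.40 and -0.21 at a second probe and -0.32, -0.36 and -0.28 at an undetected one. Skil, a repressor of Smad signalling, was at -1.16, 0.17 and -0.55, with -0.04, 0.07 and 0.14 at its other probe, which was not detected. Ccn2 was at -0.27, -0.95 and 0.50. Ltbp1 was at least 2.38-fold lower at 0.85 Gy and at -1.29 at 8.5 Gy, while its other 5 probes lay between -0.23 and 0.60.

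**Figure D3:**
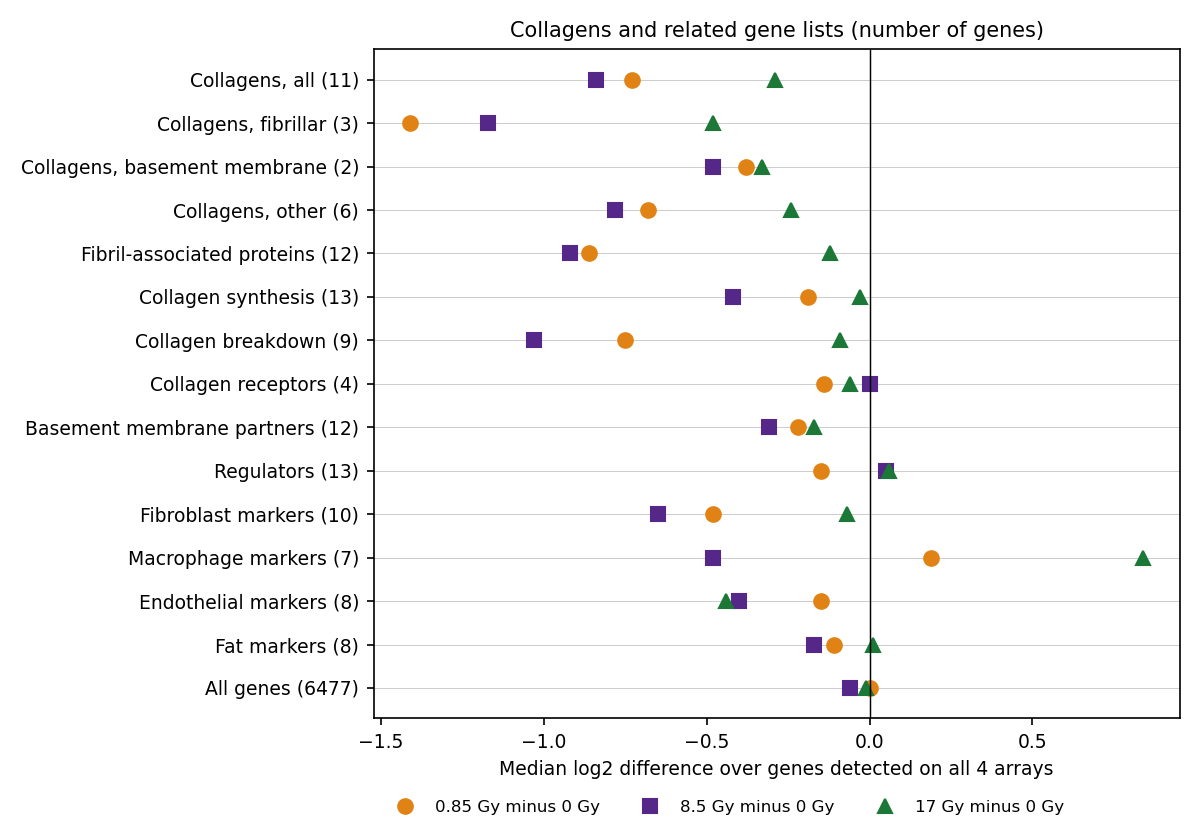
Median log2 difference from the 0 Gy array for the collagens, lists of related genes and cell type markers, over the genes detected on all 4 arrays, whose number is in brackets. Circles are 0.85 Gy, squares 8.5 Gy and triangles 17 Gy. Collagen medians of -0.73, -0.84 and -0.29 stand beside fibroblast marker medians of -0.48, -0.65 and -0.07 and all-gene medians of 0.00, -0.06 and -0.01.

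Fibroblasts make most fibrillar collagen. Of 10 fibroblast marker genes, 9 at 0.85 Gy, 10 at 8.5 Gy and 5 at 17 Gy had values below the 0 Gy array. Among all genes detected on all 4 arrays, 49.7%, 55.8% and 51.4% did. All 10 fibroblast marker genes were detected on all 4 arrays, and their summed intensities in dose order were 11418, 8922, 8845 and 11635. The marker medians were -0.48, -0.65 and -0.07. At least 2-fold lower were 2, 3 and 0 markers, beside 3.06%, 3.18% and 0.201% of all genes detected on all 4 arrays. Lum, Dpt and Dcn are in both this list and that of the fibril-associated proteins. Pi16, a marker of adventitial fibroblasts that is in this list alone and was chosen after its values were seen, was at -0.87, -1.13 and -0.35. The other markers in this list alone had differences above those of Pi16 at each dose. Pdgfra was at -0.34, -0.41 and 0.52, Cd34 at -0.11, -0.09 and -0.26, and Gsn at 0.09, -0.51 and -0.34. Serping1 was at -0.14, -0.92 and 0.07, Mfap5 at -0.49, -0.22 and 0.7, and Clec3b at -0.48, -0.74 and -0.17. Fat markers had medians of -0.12, -0.17 and 0.01, endothelial markers -0.15, -0.40 and -0.44, and smooth muscle and pericyte markers 0.02, -0.84 and -0.16. Macrophage markers were at 0.19, -0.48 and 0.84. The part of cell composition in the collagen values was not tested.

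**Figure D4:**
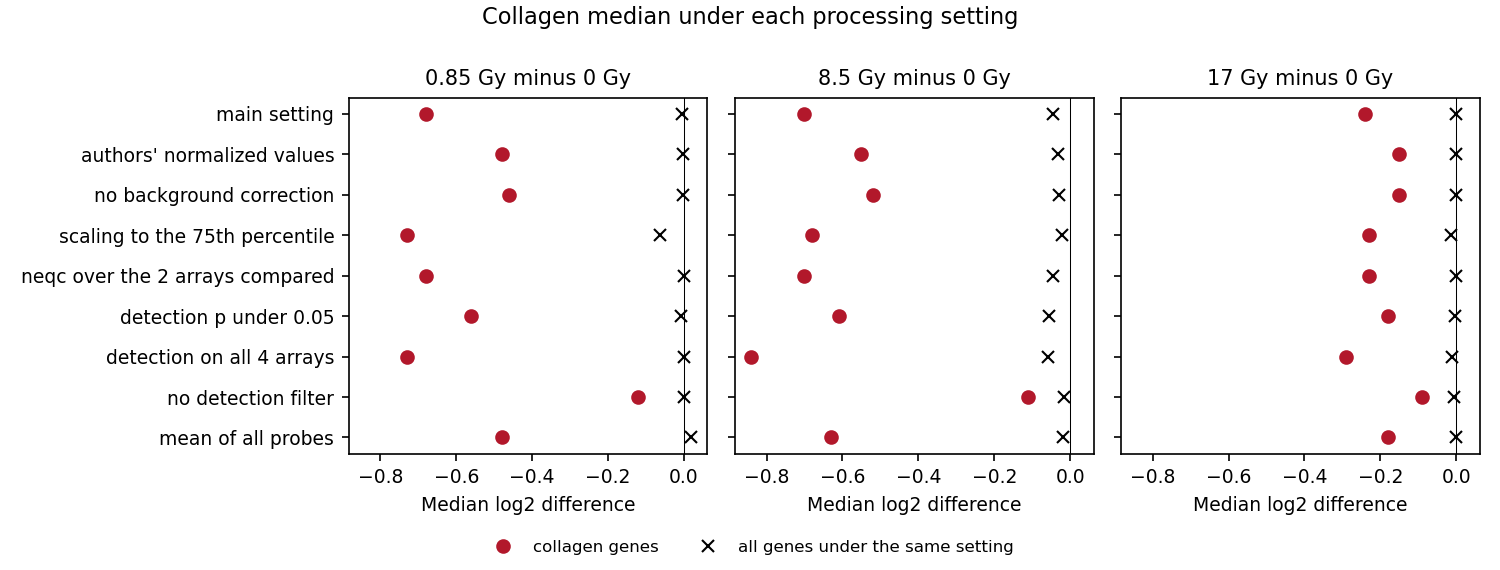
Median log2 difference of the collagen genes (circles) and of all genes compared (crosses) under the main processing and 8 alternatives, for each dosed array against the 0 Gy array. The collagen median is below 0 in each, from -0.73 to -0.12 at 0.85 Gy, -0.84 to -0.11 at 8.5 Gy and -0.29 to -0.09 at 17 Gy. The values nearest 0 come from counting all 37 genes with no detection filter.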

How the data were processed

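Total RNA of 4 samples was hybridised to Illumina mouse BeadChips, 1 array at each dose. Bead intensity was used from the authors' deposited non-normalized table, which gives 26512 probes on a linear scale with lowest values of 69 to 79 on an array. Its detection p-value for each probe was deposited beside it, per the file headers. The authors also deposited normalized intensities, whose sorted values are identical in the 4 arrays, and these served as an alternative. The sources used here do not give the scanner software or the method behind the detection p-value.

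Intensities were background-corrected from the detection p-values, quantile-normalized and put on the log2 scale with limma's neqc (version 3.58.1, R 4.3.3, offset 16). The probe with the highest mean intensity stood for a gene, and 23978 probes carried 1 gene symbol in the platform table. Genes were compared where either array of the pair had a detection p-value below 0.01. Where 1 of the 2 arrays lacked detection, the fold is a bound against the lowest detected signal of that array. Counts of genes 2-fold apart use the normalized differences, also for genes detected on 1 array of the pair, whose bounds can be below 2-fold. The number of arrays limits precision, and no test was run. The procedure was tested on simulated data.

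Fibrillar collagens are types I, II, III, V, XI, XXIV and XXVII, basement membrane collagen is type IV, and all others form the last class. Every detected collagen was named, and up to 4 detected genes of each related list with the largest difference. Names given beside counts of 5 or fewer follow from the counts. The members and lists were chosen with earlier results of these data known. Alternatives changed the background correction, normalization, detection limit, probe choice, fold threshold and classes. Of the 59 collagen probes, 15, 14, 14 and 17 were detected on the 0, 0.85, 8.5 and 17 Gy arrays. These are 25.4%, 23.7%, 23.7% and 28.8%, below the 39.2%, 39.3%, 41.1% and 41.3% of all named probes.

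Besides the lists in the report, markers of other cell types were checked. Of 9 cartilage markers 0 were detected, and 1 each of tendon (5), bone (6), keratinocyte (6) and Schwann cell (2 with a probe).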

Additional observations from a re-analysis of the deposited data

How the results depend on the processing

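No paired analysis was possible because each dose has 1 array. The collagen median stayed below 0 at each dose under each of the alternatives run. The count at least 2-fold lower at 0.85 Gy was 3, beside 3.68% of all genes compared. It became 5 with scaling to the 75th percentile, beside 5.73%, and 1 at a 3-fold threshold, beside 0.859%. At 8.5 Gy it was 4, beside 3.63%, and became 2 in the authors' normalized values, beside 1.16%. Without background correction it was 2, beside 1.08%, and at a 3-fold threshold 0, beside 0.585%. With no detection filter the medians were -0.12, -0.11 and -0.09 at 0.85, 8.5 and 17 Gy over all 37 genes, of which 20 lie at background. The 17 Gy median was -0.24 and became -0.15 both in the authors' values and without background correction. For the other changes the cause was not tested.

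Under 5 alternatives for each gene, Col3a1 at 0.85 Gy ran from -2.23 to -1.55 and Col5a1 from -1.44 to -1.18. Col15a1 at 0.85 Gy ran from -1.26 to -0.78 and Col18a1 at 8.5 Gy from -1.32 to -0.61, the latter with all its probes averaged. Col1a1 at 8.5 Gy ran from -1.0 to -0.51. No value at least 2-fold apart changed sign. Over all genes at 0.85 Gy 94 were lower and 27 higher in the authors' values, 88 and 21 without background correction. At 8.5 Gy 206 were lower and 75 higher among genes detected on all 4 arrays, 85 and 92 without background correction, and 46 and 99 at 3-fold. At 17 Gy the split of 36 and 69 became 2 and 17 in the authors' values, 2 and 14 without background correction and 1 and 17 at 3-fold. Probes near background limit Col1a2, Col5a3, Col4a6, Col14a1, Col7a1 and Col23a1. The fibrillar median at 17 Gy was -0.29 and became -0.14 in the authors' values and -0.11 without background correction.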
